A study of Mus musculus with 6 samples.

Results

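The mouse major histocompatibility complex (MHC) lies on chromosome 17, and the regions described here are the ATAC peaks of a retinal single-nucleus multiome study on chr17 with a start at or after 33000000 and an end at or before 38000000 in mm10. The authors called peaks in each library separately, and this window held 231 peaks in Ctrl, 374 in WIF1-2w and 287 in WIF1-4w. Peaks of different libraries that overlapped by at least 1 bp were joined into loci, which gave 398 loci of 117835 in the whole series. A locus within 1000 bp of a gene start listed with the peaks was called a promoter locus, and 162 of the 398 were of this kind. The other 236 loci are called other loci. Accessibility is given as CPM, the counts of a locus divided by all ATAC counts of the same nuclei over the peaks of the library and multiplied by 1000000.

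The 3 libraries came from retina of C57BL/6J mice. Both WIF1 libraries carry the label AAV2/2, a viral vector, and are labelled 2 weeks and 4 weeks AVI, an abbreviation that the labels do not expand. Ctrl came from naïve retina. The study design names the vector CMV-Wif1-HA, with or without an added IRES-GFP cassette, driven by the broadly active CMV promoter, and 2 eyes per group, without stating which vector was used here or whether the eyes were pooled. Cells were released with papain and their nuclei with a lysis buffer; the labels used here give no age. WIF1 is a secreted inhibitor of Wnt signalling. None of the 3 libraries came from eyes given a control vector, so that injection, vector and WIF1 differ from Ctrl together and cannot be told apart. There was 1 library per group, so no test between groups was possible. Intervals are 95% intervals that cover counting error only.

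Nucleated cells load short peptides, cut by the proteasome and carried into the endoplasmic reticulum by the TAP transporter, onto MHC class I molecules and show them to cytotoxic T cells. Class II molecules, mostly made by antigen-presenting cells, show peptides from taken-up material to helper T cells. The window holds the genes of both kinds (names beginning H2-), the immunoproteasome and TAP genes, the class III segment with complement and cytokine genes, many housekeeping genes between them, and clusters of olfactory receptor genes. Interferons and NF-kappa B signalling are known inducers of class I genes, and neurons of the healthy retina are known for low class I levels.

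Promoters of 5 class I genes and of Tap1 are shown because the comparisons between libraries turn on them. Each runs from 250 bases before to 49 bases after the annotated start, 5′ to 3′ on the strand of the gene, as given by RefSeq for GRCm38.p6, of which mm10 is the browser name. Capitals mark matches to GGGNNTTCC (kappa B), GAANNGAAA (letters close to the core of interferon response elements) and CCAAT on either strand. The windows are chr17:34000298-34000597 on the minus strand for H2-K1, and on the plus strand chr17:35262844-35263143 for H2-D1, chr17:35379367-35379666 for H2-Q4, chr17:35424600-35424899 for H2-Q6, chr17:35438905-35439204 for H2-Q7 and chr17:34187306-34187605 for Tap1.
H2-K1: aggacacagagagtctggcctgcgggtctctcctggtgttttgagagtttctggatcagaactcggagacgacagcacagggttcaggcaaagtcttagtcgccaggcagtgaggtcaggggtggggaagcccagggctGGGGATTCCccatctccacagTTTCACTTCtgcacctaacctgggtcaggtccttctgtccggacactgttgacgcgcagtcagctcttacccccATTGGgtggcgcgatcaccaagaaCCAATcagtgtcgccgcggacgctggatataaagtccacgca
H2-D1: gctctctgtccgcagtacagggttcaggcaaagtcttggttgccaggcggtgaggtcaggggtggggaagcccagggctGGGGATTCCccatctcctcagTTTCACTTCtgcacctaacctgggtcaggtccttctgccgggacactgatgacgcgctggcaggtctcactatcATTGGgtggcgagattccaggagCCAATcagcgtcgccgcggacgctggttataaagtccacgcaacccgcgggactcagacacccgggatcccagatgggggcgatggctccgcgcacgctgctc
H2-Q4: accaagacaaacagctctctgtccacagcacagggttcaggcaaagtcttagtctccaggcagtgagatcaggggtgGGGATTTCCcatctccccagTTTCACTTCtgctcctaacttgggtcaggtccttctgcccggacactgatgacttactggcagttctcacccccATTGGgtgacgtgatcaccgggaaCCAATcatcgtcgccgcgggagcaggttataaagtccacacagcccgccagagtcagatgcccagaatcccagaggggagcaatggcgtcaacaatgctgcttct
H2-Q6: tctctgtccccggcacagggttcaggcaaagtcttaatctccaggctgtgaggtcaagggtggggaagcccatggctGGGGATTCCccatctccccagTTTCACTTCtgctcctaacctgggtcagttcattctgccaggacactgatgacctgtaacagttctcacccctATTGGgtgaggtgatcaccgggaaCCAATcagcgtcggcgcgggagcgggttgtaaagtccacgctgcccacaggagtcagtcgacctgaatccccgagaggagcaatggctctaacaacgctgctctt
H2-Q7: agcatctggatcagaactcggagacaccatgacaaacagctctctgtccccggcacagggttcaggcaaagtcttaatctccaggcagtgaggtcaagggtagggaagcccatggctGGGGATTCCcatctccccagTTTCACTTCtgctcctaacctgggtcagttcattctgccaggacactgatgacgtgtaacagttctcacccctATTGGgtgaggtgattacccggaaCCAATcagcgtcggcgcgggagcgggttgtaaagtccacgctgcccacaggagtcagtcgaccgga
Tap1: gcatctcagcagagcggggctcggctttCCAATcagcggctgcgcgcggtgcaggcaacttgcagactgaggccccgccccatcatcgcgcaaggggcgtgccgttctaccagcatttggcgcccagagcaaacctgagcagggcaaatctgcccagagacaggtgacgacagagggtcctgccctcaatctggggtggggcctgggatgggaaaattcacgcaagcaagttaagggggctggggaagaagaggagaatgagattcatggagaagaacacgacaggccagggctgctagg

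Each of the 5 class I promoters held 1 kappa B match, 1 GAANNGAAA match on the opposite strand and 2 CCAAT matches, and Tap1 held 1 CCAAT match. GAAANNGAA and TAATCC had no match in these 6 windows. Of all 32851 RefSeq promoters, 5.82% held GGGNNTTCC, 7.52% held GAANNGAAA, 37.4% held CCAAT, 8.56% held GAAANNGAA and 7.06% held TAATCC. Of the 24 class I promoters in the table, 29.2% held GGGNNTTCC, 37.5% held GAANNGAAA and 87.5% held CCAAT. The spacing GAANNGAAA was added after these sequences had been seen. A match is a description of letters, not evidence of binding. The windows were compared by sliding 1 along the other without gaps, so that an inserted or missing base lowers the figure. By that measure H2-Q6 and H2-Q7 were identical at 76.6% of 261 positions, and H2-D1 and H2-Q6 at 75.8% of 298. Other pairs among the 6 gave lower figures. Between the kappa B and GAANNGAAA matches H2-Q7 is 1 base shorter than H2-Q6, so these 2 windows are more alike than 76.6%. How reads that match more than 1 of the related H2-Q genes were placed is not given in the sources used here, so values at single H2-Q loci carry that uncertainty.

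Depth differed between libraries. Kept nuclei numbered 7172 in Ctrl, 8849 in WIF1-2w and 8921 in WIF1-4w, with a median of 3281.5, 6300 and 5589 ATAC counts per nucleus and 1635, 800 and 1200 RNA UMIs. Between 312 and 377 barcodes per library also occurred in another library. Nuclei were clustered on RNA and classes were named from marker genes, each named class having at least 3 of its own markers enriched. Kept nuclei in the order Ctrl, WIF1-2w and WIF1-4w numbered 4250, 5994 and 6162 rod-like, 1656, 1612 and 1658 bipolar-like, 379, 464 and 435 cone-like, 352, 210 and 116 amacrine-like, 138, 309 and 247 Müller-like and 64, 54 and 78 endothelial-like. Immune classes were larger in WIF1-2w, with 14, 52 and 15 microglia or macrophage-like and 1, 44 and 0 lymphocyte-like nuclei. Doublets were scored and left out, and 20.4%, 17.7% and 17.4% of bipolar-like nuclei of the 3 libraries had over 25% of the level of rods at 39 loci that rod-like nuclei open most. Rod-like nuclei of Ctrl and WIF1-2w lay mostly in different clusters, with 2585 nuclei of WIF1-2w and 184 of Ctrl in cluster 3, and 544 of WIF1-2w and 1404 of Ctrl in cluster 6.

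Of the 398 loci, 211 were called in all 3 libraries, 71 in 2 and 116 in 1. Of the 117835 loci of the whole series the numbers were 44580, 26509 and 46746. WIF1-2w, the library with most peaks, alone had 96 of the 116 loci, against 11 for Ctrl and 9 for WIF1-4w. In the whole series WIF1-2w alone had 34730 of 46746 such loci, against 5067 for Ctrl and 6949 for WIF1-4w. Promoter peaks made up 51.9% of the peaks of the window in Ctrl, 41.2% in WIF1-2w and 46.0% in WIF1-4w, against 28.5%, 17.9% and 22.2% of all peaks. Peaks of the window also held more counts per kb of called peak than the genome, with 1108 in Ctrl, 1419 in WIF1-2w and 1771 in WIF1-4w, against 659, 700 and 925. Along the window the loci were densest from 35.5 to 36 Mb, where 86 of the 398 lay. In the last 2 stretches of 500 kb olfactory receptors made up 20 of 27 and 19 of 19 gene starts, and 16 and 1 loci were found.

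Promoter loci were found for 171 of the 267 genes with a start in the window. Among the genes listed for this work, 12 of 24 class I genes in the window had one, 7 of them in all 3 libraries. No promoter peak was called for H2-T3, H2-M1, H2-M2, H2-M5, H2-M9, H2-M11 or any of the 6 H2-M10 genes, class I genes that include the vomeronasal H2-M10 group. All 5 loading genes and all 41 listed neighbours had a promoter locus. For class II it was 7 of 9 genes, without H2-Eb2 and H2-Oa, and for the class III list, which also holds Trim26, Gabbr1, Mog and Ubd from the class I segment, 11 of 18, without Cfb, C4a, Tnf, Lta, Lst1, Ubd and Mog.

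The share of all ATAC counts that fell in the window was almost the same in the 3 libraries, 0.721% in Ctrl, 0.727% in WIF1-2w and 0.728% in WIF1-4w over all kept nuclei. Between classes it was between 0.661% and 0.799% in rod-, cone-, bipolar-, amacrine-, Müller- and endothelial-like nuclei. Microglia or macrophage-like nuclei had 0.976%, 0.922% and 0.994%, and the lymphocyte-like nuclei of WIF1-2w had 0.985%. The differences described next lie at single loci.

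CPM is taken over all peaks of a library, and the number of peaks differed between libraries. Over all loci called in both libraries and over all kept nuclei, the median locus had a log2 ratio of -0.33 in WIF1-2w over Ctrl and -0.32 in WIF1-4w over Ctrl. In bipolar-like nuclei the median was -0.21 and -0.16, in rod-like nuclei -0.16 in both, and in Müller-like nuclei -0.17 at 2 weeks. Ratios below are of CPM, and values set against the median locus are named as such. Promoter loci of the window had a median log2 ratio of -0.12 in WIF1-2w over Ctrl and -0.11 in WIF1-4w over Ctrl, beside -0.17 and -0.13 for all promoters. Other loci of the window had -0.21 and -0.30, beside -0.47 and -0.46 for all other loci.

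Over all kept nuclei, 0 of 216 loci of the window with at least 30 counts were at least 2-fold higher in WIF1-2w than in Ctrl, where the background over the genome was 0.149%. At least 2-fold lower were 7 of the 216, or 3.24%, against a background of 16.4%. In WIF1-4w over Ctrl 0 of 215 were higher (background 0.0322%) and 10 were lower (background 11%). With the libraries scaled by the median of ratios over matched loci in place of CPM, 4 were higher and 1 lower at 2 weeks (0.669% and 8.18% of all loci). By that scaling 0 were higher and 2 lower at 4 weeks (0.116% and 3.67% of all loci). Within classes more loci were higher. In bipolar-like nuclei at 2 weeks 6 of 202 loci were at least 2-fold higher, or 2.97%, against a background of 0.952%, and 11 were lower against a background of 6.28%. At 4 weeks 0 of 199 were higher (background 0.267%) and 5 were lower (background 4.73%). With the median of ratios 10 were higher and 5 lower at 2 weeks, against 2.36% and 3.3% of all loci. The 6 higher loci by CPM were the promoters of H2-Q6 and H2-Q4 and 4 loci outside promoters.

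**Figure D1:**
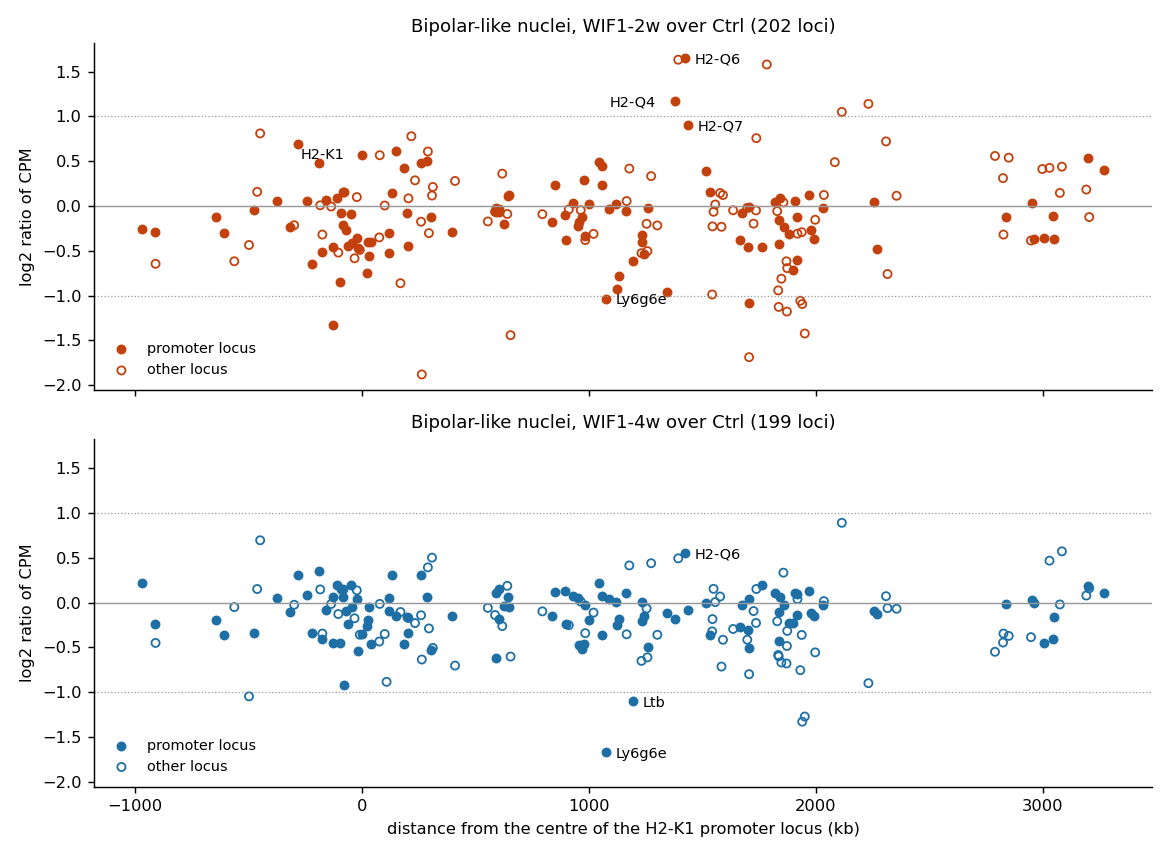
log2 ratio of CPM in bipolar-like nuclei at the loci of the window called in both libraries, against distance in kb from the centre of the H2-K1 promoter locus, for WIF1-2w over Ctrl (top, 202 loci) and WIF1-4w over Ctrl (bottom, 199 loci). Filled points are promoter loci, open points other loci, and dotted lines mark 2-fold. At 2 weeks H2-Q6 (1.65), H2-Q4 (1.17) and H2-Q7 (0.91) stand above most loci, and at 4 weeks H2-Q6 is at 0.55.

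The promoter locus of H2-Q6, a non-classical (Qa-2 region) class I gene, chr17:35424370-35425281, had the highest ratio of any promoter in bipolar-like nuclei at 2 weeks. Its level was 13.8 CPM in Ctrl (115 counts, interval 10.579 to 18), 43.2 CPM in WIF1-2w (568 counts, 38.4 to 48.6) and 20.2 CPM in WIF1-4w (239 counts, 16.8 to 24.3). The intervals of WIF1-2w and Ctrl did not overlap. The ratio was 3.13 in WIF1-2w over Ctrl (2.33 to 4.19), a log2 difference of 1.86 against the median locus, and 1.46 in WIF1-4w over Ctrl (1.06 to 2.03). WIF1-4w over WIF1-2w had a ratio of 0.467 (0.376 to 0.583).

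Other class I promoters followed in order of ratio. The H2-Q4 locus, chr17:35379122-35380032, shared with the start of Gm11131, had 14.4 CPM in Ctrl, 32.4 CPM in WIF1-2w and 12.7 CPM in WIF1-4w, with ratios of 2.25 (1.68 to 3.05) at 2 weeks and 0.88 (0.618 to 1.26) at 4 weeks. H2-Q7, a neighbour of H2-Q6 that also encodes a Qa-2 molecule, chr17:35438691-35439639, had 17.3, 32.4 and 16.3 CPM in Ctrl, WIF1-2w and WIF1-4w, with a 2-week ratio of 1.88 (1.43 to 2.49). At both loci the 4-week interval of the ratio includes 1, with 0.944 (0.692 to 1.31) at H2-Q7. H2-K1, the classical class I heavy chain at the centromeric end, chr17:33999880-34000791, had 29.5, 43.9 and 23.3 CPM, with a 2-week ratio of 1.48 (1.20 to 1.85) and a 4-week ratio of 0.787 (0.615 to 1.02).

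The promoter of H2-D1, the other classical class I heavy chain, had a 2-week ratio near 1. The locus chr17:35262608-35263497 had 43.1 CPM in Ctrl, 42.5 CPM in WIF1-2w and 30.7 CPM in WIF1-4w of bipolar-like nuclei. The 2-week ratio was 0.985, with an interval of 0.812 to 1.19, and the 4-week ratio was 0.712 (0.576 to 0.880). H2-Q2 had 3.84, 1.98 and 3.55 CPM, with a 2-week ratio of 0.515 (0.228 to 1.14). H2-M3, which presents bacterial formylated peptides, had 8.53, 11.3 and 9.22 CPM and a ratio of 1.32 (0.864 to 2.00). Of the 7 class I promoters tested in these nuclei at 2 weeks, 5 were above 0 on the log2 scale and 2 past 2-fold, with a median of 0.57. Of all 14276 promoters tested 3676 were above 0 and 75 past 2-fold, or 0.525%, with a median of -0.21. At 4 weeks 2 of 7 were above 0, with a median of -0.11 beside -0.12. Summed over the 7 loci, bipolar-like nuclei had 131 CPM in Ctrl (120 to 142), 208 CPM in WIF1-2w (197 to 219) and 116 CPM in WIF1-4w (107 to 125).

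The 2-week ratios were also taken within subsets of bipolar-like nuclei. In 8 clusters with at least 50 nuclei in both libraries, H2-Q6 was higher in WIF1-2w than in Ctrl in 8 of 8, with ratios from 1.5 to 6.44. H2-Q4, H2-K1 and H2-Q7 were each higher in 7 of 8 clusters, and H2-D1 in 4 of 8. The H2-Q6 counts of WIF1-2w came from 259 of 1612 bipolar-like nuclei, and the nucleus with most of them gave 0.704%. In rod-like nuclei of the same library, a class with 1.55 CPM at this locus, 0.484% of nuclei had a count, at a median of 5984.5 ATAC counts per nucleus against 7610.5 in bipolar-like nuclei.

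RNA of immune markers in bipolar-like nuclei was also higher in WIF1-2w. Of 12 microglia or macrophage markers, 10 had UMIs in bipolar-like nuclei of WIF1-2w and 10 in those of Ctrl, with a summed level of 73.1 CPM in WIF1-2w and 46.0 CPM in Ctrl. Of 12 lymphocyte markers, 10 had UMIs in WIF1-2w and 5 in Ctrl, with 21.97 and 1.83 CPM, and Cd3e and Trbc2 were at 0 in WIF1-2w. Their part in the ratios was not tested. Microglia or macrophage-like nuclei of WIF1-2w had 33298 CPM of their own markers. The promoter of H2-DMb2, a class II gene of antigen-presenting cells, had 73 ATAC counts in those 52 microglia or macrophage-like nuclei, 25 in lymphocyte-like and 0 in the 1612 bipolar-like and 309 Müller-like nuclei of WIF1-2w.

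**Figure D2:**
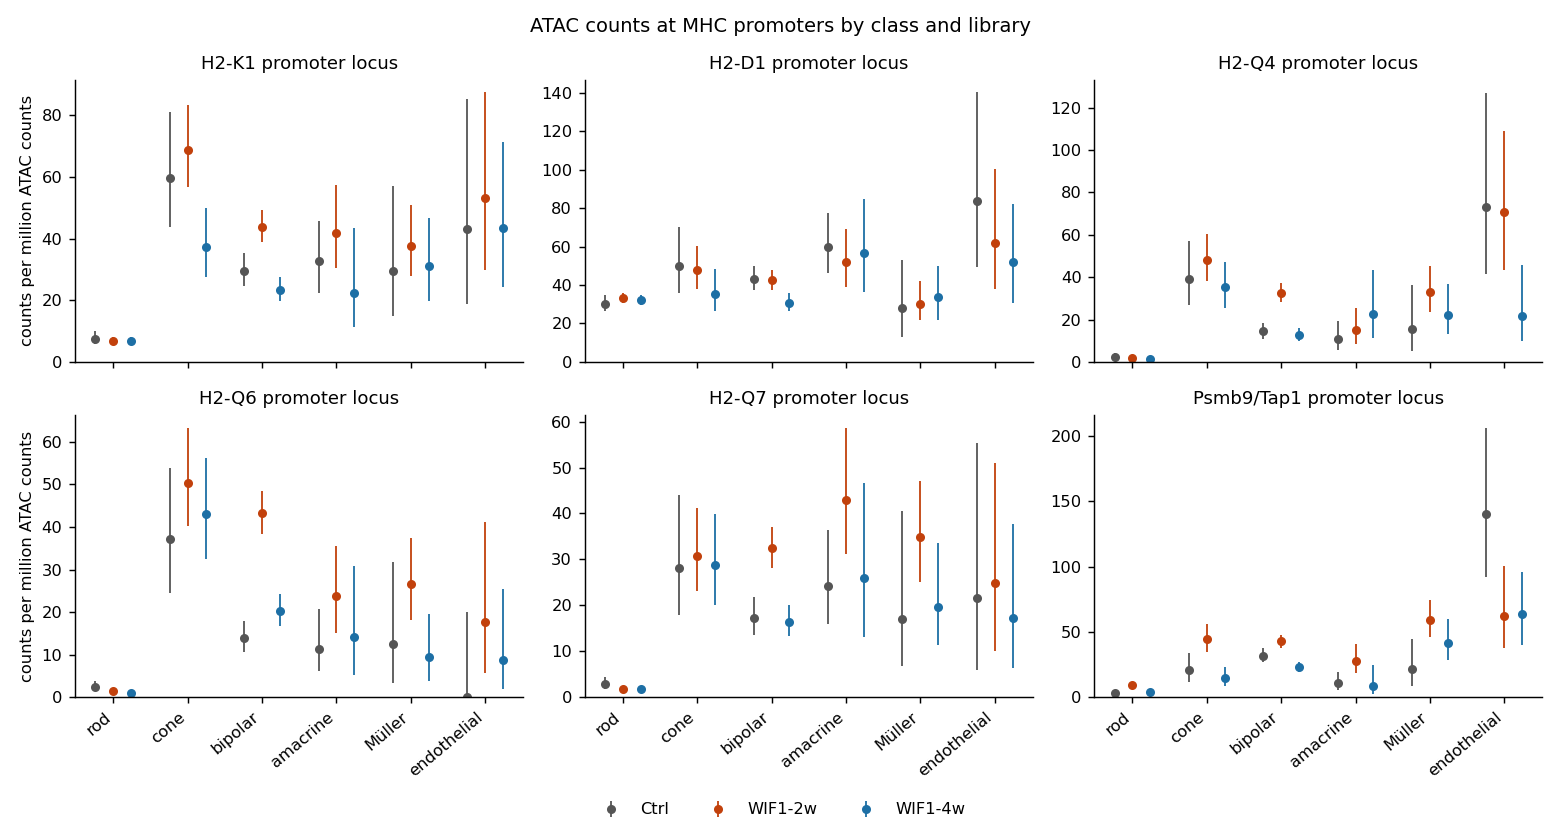
CPM of 6 promoter loci of the window in 6 classes of nuclei of Ctrl, WIF1-2w and WIF1-4w (left to right within a class), with 95% intervals for counting error; each panel has its own axis from 0. Rod-like nuclei are low at all of them except H2-D1, and among libraries of bipolar-like nuclei WIF1-2w is the highest at H2-Q4, H2-Q6 and H2-Q7, with 32.4, 43.2 and 32.4 CPM.

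Levels of class I promoters differed between classes within each library. In rod-like nuclei H2-K1 had 7.51 CPM in Ctrl, 6.88 CPM in WIF1-2w and 6.71 CPM in WIF1-4w, and H2-D1 had 30.3, 33.0 and 32.1 CPM. H2-Q4, H2-Q6 and H2-Q7 were between 0.878 and 2.79 CPM in rod-like nuclei of the 3 libraries. H2-Q6 had 2.43 CPM in Ctrl (34 counts), 1.55 CPM in WIF1-2w (59 counts) and 0.878 CPM in WIF1-4w (31 counts) there, with ratios of 0.637 (0.346 to 1.25) and 0.361 (0.176 to 0.784), where the bipolar-like ratios were above 1; the difference between classes was not tested. Of 6 class I promoters tested there at 2 weeks, 1 was above 0, with a median of -0.48 beside -0.09 over all promoters. At 4 weeks 1 of 6 was above 0 and 1, H2-Q6, past 2-fold lower, with a median of -0.50 beside -0.08. In cone-like nuclei, the other photoreceptor, the same loci had higher levels, with 37.1 CPM in Ctrl, 50.5 CPM in WIF1-2w and 43.1 CPM in WIF1-4w at H2-Q6 and 59.7, 68.9 and 37.2 CPM at H2-K1. The summed level of the 7 class I loci was 47.5, 46.5 and 44.2 CPM in rod-like and 217, 255 and 189 CPM in cone-like nuclei of Ctrl, WIF1-2w and WIF1-4w.

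Müller-like nuclei, of the main glial cells that span the retina, had 2-week ratios near 2 at the same H2-Q loci, on fewer counts. H2-Q4 had 15.5 CPM in Ctrl (10 counts), 33.1 CPM in WIF1-2w (80 counts) and 22.3 CPM in WIF1-4w (33 counts), with a 2-week ratio of 2.14 (0.843 to 6.94). H2-Q7 had 17.1, 34.8 and 19.6 CPM, with a ratio of 2.04 (0.791 to 5.38), and H2-Q6 had 12.4, 26.5 and 9.47 CPM, with a ratio of 2.14 (0.758 to 8.32). All 3 intervals include 1. Of 6 class I promoters tested at 2 weeks, 5 were above 0 and 3 past 2-fold, with a median of 0.69 beside -0.24 over all promoters, of which 4.12% were past 2-fold. Summed, the 7 loci had 118 CPM in Ctrl (83.5 to 162), 178 CPM in WIF1-2w (155 to 204) and 132 CPM in WIF1-4w (108 to 162). In the window as a whole 12 of 116 loci were at least 2-fold higher in these nuclei at 2 weeks, or 10.34%, against a background of 7.45%, and 5 were lower against a background of 7.8%. With the median of ratios 24 were higher and 0 lower, against 17.1% and 1.64% of all loci. Both shares that were higher lay near their background. At 4 weeks 2 of 90 were higher, Zfp101 and Msh5 (background 4.34%), and 0 were lower (background 2.34%).

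Amacrine-like nuclei had 11.4 CPM in Ctrl, 23.7 CPM in WIF1-2w and 14.2 CPM in WIF1-4w at H2-Q6, with a 2-week ratio of 2.09 (0.956 to 4.41), and 24.2, 42.8 and 26.0 CPM at H2-Q7, with a ratio of 1.77 (1.04 to 3). Their clusters differed between libraries, several holding mostly nuclei of Ctrl. In the window 4 of 124 loci were higher in WIF1-2w than in Ctrl (background 1.54%) and 3 lower (background 10.9%). In WIF1-4w 0 of 112 were higher (background 0.898%) and 12 lower (background 11%). With the median of ratios 6 were higher and 2 lower in WIF1-2w, against 4.4% and 6.29% of all loci. In 14, 52 and 15 microglia or macrophage-like nuclei the summed class I level was 267 CPM in Ctrl (140 to 500), 512 CPM in WIF1-2w (450 to 581) and 633 CPM in WIF1-4w (465 to 842). Of the 52 nuclei of WIF1-2w, 27 and 15 lay in 2 clusters that held no nucleus of Ctrl or WIF1-4w. In lymphocyte-like nuclei of WIF1-2w the summed class I level was 494 CPM (423 to 573).

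Peptide loading genes gave a different pattern over classes. The bidirectional promoter of Psmb9, an immunoproteasome subunit, and Tap1, a subunit of the peptide transporter, chr17:34187009-34187887, had 3.01 CPM in Ctrl (42 counts, 1.86 to 4.59), 9.58 CPM in WIF1-2w (365 counts, 8.27 to 11.1) and 4.05 CPM in WIF1-4w (143 counts, 3.19 to 5.14) in rod-like nuclei. The ratio was 3.19 in WIF1-2w over Ctrl (2.03 to 5.29) and 1.35 in WIF1-4w over Ctrl (0.825 to 2.32). It was the 1 listed class I or loading promoter past 2-fold in rod-like nuclei at 2 weeks, while H2-K1 in the same nuclei had 6.88 CPM in WIF1-2w and 7.51 CPM in Ctrl. In 6 rod-like clusters the ratio was at least 2 in 6 of 6, from 2.26 to 14.1, although Ctrl had 1 or 2 counts in 3 of them.

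The same promoter was higher in WIF1-2w in other neurons and in glia. Cone-like nuclei had 20.6 CPM in Ctrl, 44.4 CPM in WIF1-2w and 14.4 CPM in WIF1-4w, with a 2-week ratio of 2.16 (1.22 to 4.06). Müller-like nuclei had 21.7, 58.8 and 41.3 CPM, with a ratio of 2.71 (1.25 to 6.98), and amacrine-like nuclei 10.9, 27.9 and 8.29 CPM, with a ratio of 2.56 (1.23 to 5.73). In bipolar-like nuclei the levels were 31.7, 42.6 and 23 CPM, with a 2-week ratio of 1.34 (1.09 to 1.67) and a 4-week ratio of 0.725 (0.567 to 0.929). Endothelial-like nuclei had lower levels in both WIF1 libraries, with 141 CPM in Ctrl (52 counts), 61.9 CPM in WIF1-2w (35 counts) and 63.5 CPM in WIF1-4w (44 counts) and ratios of 0.440 (0.234 to 0.859) and 0.452 (0.244 to 0.830).

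Psmb8, the neighbouring immunoproteasome subunit, had 10.161 CPM in Ctrl, 15.6 CPM in WIF1-2w and 10.198 CPM in WIF1-4w in rod-like nuclei, with a 2-week ratio of 1.54 (1.18 to 2.02), and 29.7, 28.1 and 26.5 CPM in bipolar-like nuclei. Tap2, the partner subunit of Tap1, had 22.5, 16.5 and 17.8 CPM in bipolar-like nuclei, with a 2-week ratio of 0.736 (0.553 to 0.979), and 6.80, 7.40 and 6.94 CPM in rod-like nuclei. The Tap2 locus, chr17:34204087-34204998, lies within 1000 bp of the listed start at 34203527 but does not cover it. Tapbp, which encodes tapasin, a bridge between TAP and class I, had 14.0, 31.1 and 22.3 CPM in Müller-like nuclei, with a 2-week ratio of 2.23 (0.798 to 6.61), and 15, 9.74 and 13.5 CPM in rod-like nuclei. Over the 4 loading loci the sum in Müller-like nuclei was 76.0 CPM in Ctrl, 143 CPM in WIF1-2w and 98.1 CPM in WIF1-4w, while in bipolar-like nuclei it was 94.0, 96.1 and 78.0 CPM. At 2 weeks 1 of 4 was past 2-fold in rod-like nuclei, 0 of 4 in bipolar-like, 2 of 4 in Müller-like, 1 of 3 in cone-like and 1 of 3 in amacrine-like nuclei. In Müller-like nuclei Psmb9/Tap1 and Tapbp had 14 and 9 counts in Ctrl, and in amacrine-like nuclei Psmb9/Tap1 had 22. These passed the minimum of 30 counts through WIF1-2w alone. Over all promoters the share that was higher was 1.38% in rod-like, 0.525% in bipolar-like, 4.12% in Müller-like, 1.27% in cone-like and 0.43% in amacrine-like nuclei.

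In the window as a whole 6 of 192 loci in rod-like nuclei were at least 2-fold higher in WIF1-2w than in Ctrl, or 3.13%, against a background of 1.88%, and 7 were lower against a background of 14.6%. With the median of ratios 13 were higher and 4 lower, where 4.25% of all loci were higher. In WIF1-4w over Ctrl 1 of 191 was higher, at Ddah2 (background 0.355%), and 6 were lower (background 7.98%). In cone-like nuclei 3 of 131 were higher at 2 weeks (background 3.01%) and 2 lower (background 2.9%), or 11 and 1 with the median of ratios, against 5.02% and 1.36% of all loci. At 4 weeks 2 of 120 were higher (background 1.65%) and 3 lower (background 2.53%). By CPM the cone-like share that was higher at 2 weeks lay near the background.

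Class II promoters had low levels in bipolar-like nuclei. H2-Ab1, a class II beta chain, had 10.7 CPM in Ctrl, 14.9 CPM in WIF1-2w and 13.2 CPM in WIF1-4w in bipolar-like nuclei, with a 2-week ratio of 1.4 (0.961 to 2.01). H2-Aa, the alpha chain, had 6.01, 8.53 and 6.26 CPM, with a ratio of 1.42 (0.872 to 2.38), and H2-Eb1 7.57, 6.93 and 5.24 CPM. H2-DMb1, which helps load class II, had 8.29, 12.7 and 7.44 CPM, with a ratio of 1.53 (1.01 to 2.33). The locus assigned to H2-DMa, chr17:34122081-34122978, also holds a listed start of Brd2, a broadly expressed bromodomain gene. It covers only the first end of the start interval listed for H2-DMa, 34122832 to 34135654, so its level cannot be assigned to H2-DMa. This locus had 116, 80.9 and 109 CPM, with a 2-week ratio of 0.696 (0.614 to 0.788), below 1 in 8 of 8 clusters. Of 5 class II promoters tested at 2 weeks, this locus among them, 3 were above 0 and 0 past 2-fold, with a median of 0.48.

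In microglia or macrophage-like nuclei H2-Aa had 42.7 CPM in WIF1-2w (40 counts, 26.1 to 65.9) and 50.8 CPM in Ctrl (4 counts, 6.16 to 184), and H2-Ab1 had 54.4 CPM in WIF1-2w (51 counts, 36.3 to 81.3) and 0 counts in Ctrl, which allows up to 93.8 CPM. The sum over the 5 class II promoters called in every library was 260 CPM in WIF1-2w (216 to 311) and 292 CPM in Ctrl (158 to 533). That sum includes the locus assigned to both H2-DMa and Brd2 and leaves out H2-DMb2, so it cannot show whether H2-Aa and H2-Ab1 differed. RNA of the microglia or macrophage-like nuclei held 256 UMIs of H2-Ab1 and 286 of H2-Aa among 86702 UMIs in WIF1-2w, and 1 and 0 among 30104 in Ctrl. Most of these nuclei of WIF1-2w lay in clusters with no nucleus of Ctrl. H2-DMb2, C4b, Aif1 and Ager had a promoter peak in WIF1-2w alone.

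Class III and neighbouring promoters held few loci past 2-fold. Of 7 promoters of the class III list tested in bipolar-like nuclei at 2 weeks 0 were above 0, with a median of -0.13 beside -0.21 over all promoters, and of 34 neighbour promoters 11 were above 0 and 0 past 2-fold, with a median of -0.14. At 4 weeks 1 of 7 class III promoters, Ltb, was past 2-fold lower, where 2.85% of all promoters were, and their median was -0.41 beside -0.12. Ltb, which encodes lymphotoxin beta, had 7.45 CPM in Ctrl, 4.87 CPM in WIF1-2w and 3.47 CPM in WIF1-4w, with a 4-week ratio of 0.466 (0.260 to 0.857). The Ltb locus, chr17:35195412-35196336, does not cover the listed start interval, 35194439 to 35194626. Hspa1b, a heat shock gene, had 9.97, 8.83 and 7.19 CPM. The locus assigned to C2, a complement gene, is also the promoter locus of Zbtb12 and had 179, 168 and 195 CPM, the highest of the list. It covers neither end of the start interval listed for C2, 34882026 to 34895547, so its level cannot be assigned to C2. In Müller-like nuclei 0 of 6 class III promoters were past 2-fold at 2 weeks, with a median of -0.58 beside -0.24 over all promoters, and 0 of 33 neighbours were higher and 2 lower, with a median of -0.24.

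Ddah2 and March2 differed most among named promoters of this kind in rod-like nuclei, and March2 is not on the neighbour list and was named by its rank over all kept nuclei. Ddah2, a dimethylarginine dimethylaminohydrolase, chr17:35058702-35059367, had 4.01 CPM in Ctrl (56 counts), 14.6 CPM in WIF1-2w (556 counts) and 10.481 CPM in WIF1-4w (370 counts). The ratio was 3.64 (2.47 to 5.58) in WIF1-2w over Ctrl and 2.62 (1.75 to 4.04) in WIF1-4w over Ctrl, and it was the 1 locus of the window at least 2-fold higher in rod-like nuclei at both times. In bipolar-like nuclei the ratios were 1.37 (0.932 to 2.01) and 0.78 (0.496 to 1.2). Ddah2 RNA in rod-like nuclei was 2.16 CPM in Ctrl, 2.16 CPM in WIF1-2w and 3.82 CPM in WIF1-4w. March2, a membrane-bound ubiquitin ligase, chr17:33718290-33719220, had 50.4, 100 and 71.5 CPM in rod-like nuclei and 49.962, 80.9 and 61.6 CPM in bipolar-like nuclei. Over all kept nuclei it had 52.3, 92.2 and 68.8 CPM, with ratios of 1.76 (1.63 to 1.91) and 1.32 (1.21 to 1.43).

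Outside promoters, 1 element had more counts in bipolar-like nuclei than any class I promoter. It lies at chr17:36230997-36232011, 16.8 kb from the start of Gm20546 and 25.8 kb from that of Rpp21. Bipolar-like nuclei had 149 CPM in Ctrl (1240 counts), 328 CPM in WIF1-2w (4311 counts) and 79.8 CPM in WIF1-4w (944 counts). WIF1-2w was above and WIF1-4w below Ctrl, with ratios of 2.20 (2.02 to 2.41) and 0.536 (0.474 to 0.605), and WIF1-4w over WIF1-2w was 0.243 (0.220 to 0.269). Against the median locus the log2 differences were 1.35 at 2 weeks and -0.74 at 4 weeks. It was higher in WIF1-2w in 7 of 8 bipolar-like clusters, most in cluster 10, with 442 CPM in WIF1-2w and 137 CPM in Ctrl and a ratio of 3.23 (2.80 to 3.73).

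In the other classes the 2-week level of that element was near or below that of Ctrl. Rod-like nuclei had 140 CPM in Ctrl, 151 CPM in WIF1-2w and 90.1 CPM in WIF1-4w, and cone-like nuclei 104, 90.4 and 42.3 CPM. Amacrine-like nuclei had 304, 224 and 133 CPM, Müller-like nuclei 304, 274 and 160 CPM, and endothelial-like nuclei 259, 84.9 and 156 CPM. The 4-week level was below Ctrl in all 6 of these classes. Microglia or macrophage-like nuclei, few in each library, had 1630 CPM in Ctrl (128 counts), 125 CPM in WIF1-2w (117 counts) and 390 CPM in WIF1-4w (58 counts), and 42 of the 52 nuclei of WIF1-2w lay in clusters with no nucleus of Ctrl. Over all kept nuclei the levels were 187, 191 and 107 CPM, with ratios of 1.02 and 0.571 (0.543 to 0.601).

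**Figure D3:**
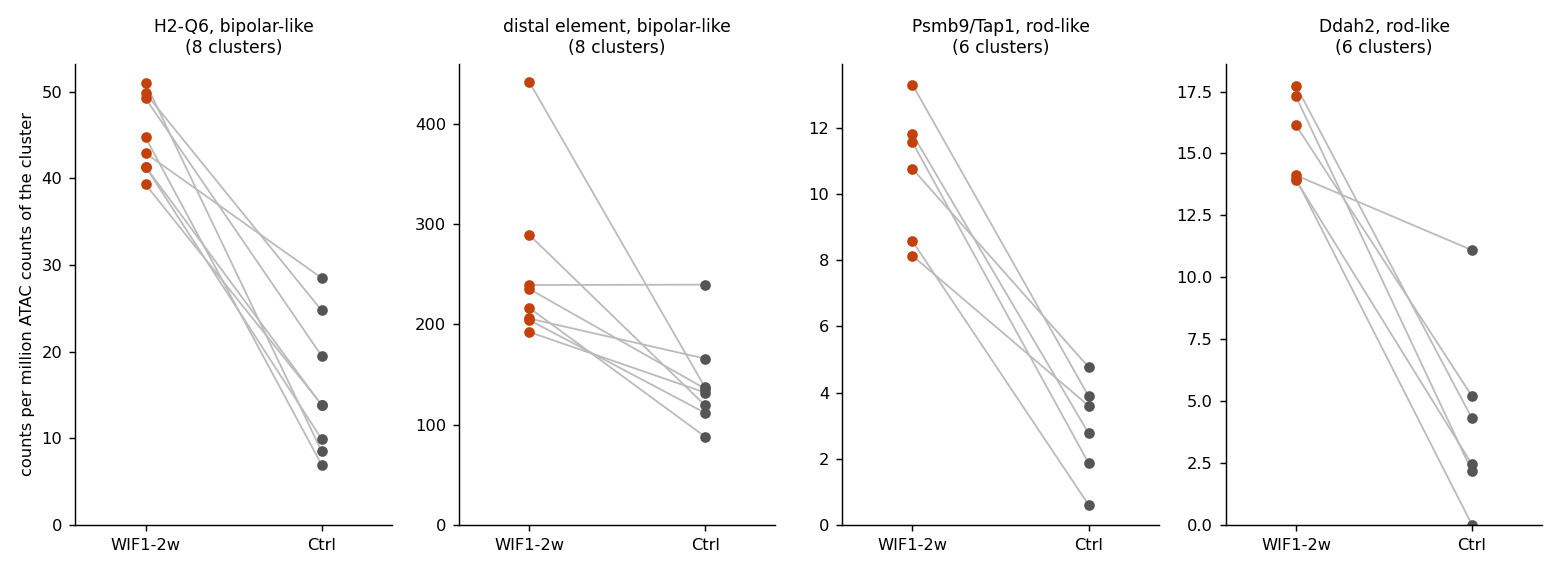
CPM of 4 loci in clusters with at least 50 nuclei in both libraries, WIF1-2w on the left and Ctrl on the right, with a line joining the values of a cluster; the distal element is chr17 locus 36230997 to 36232011. H2-Q6 lies higher in WIF1-2w in 8 of 8 bipolar-like clusters, the distal element in 7 of 8, and Psmb9/Tap1 and Ddah2 in 6 of 6 rod-like clusters.

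Another distal element lies between H2-Q4 and H2-Q6, at chr17:35393665-35394567, 14.0 kb from the H2-Q4 start. Bipolar-like nuclei had 4.44 CPM in Ctrl (37 counts), 13.8 CPM in WIF1-2w (181 counts) and 6.26 CPM in WIF1-4w (74 counts), with ratios of 3.10 (1.84 to 5.27) and 1.41. Its 2-week ratio was close to that of the H2-Q6 promoter, and it was higher in 6 of 8 clusters. Müller-like nuclei had 3, 34 and 6 counts there. Another, chr17:36113979-36114871, 2.55 kb from BC023719, had 3.60, 7.46 and 6.68 CPM in bipolar-like nuclei, with ratios of 2.07 (1.14 to 3.98) and 1.85 (1.01 to 3.66). The remaining 2 highest, near 4833427F10Rik and Myo1f, had 2-week ratios of 2.99 (0.879 to 11) and 1.75.

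In rod-like nuclei the most counted element past 2-fold outside promoters lies 4.99 kb from the start of Mog, a myelin gene with no promoter peak here. The locus chr17:37028388-37029311 had 7.01 CPM in Ctrl (98 counts), 15.4 CPM in WIF1-2w (585 counts) and 12.4 CPM in WIF1-4w (438 counts), with ratios of 2.19 (1.62 to 3.03) and 1.77. It was higher in 6 of 6 rod-like clusters. The other 4 highest, near H2-M10.1, H2-Ob, H2-Aa and Cdsn, had 2-week ratios from 1.89 to 3.12, and 3 of them had 12 or fewer counts in Ctrl. In Müller-like nuclei the 5 highest had 31 to 40 counts in WIF1-2w and 1 to 3 in Ctrl, the highest being chr17:34261170-34262167, 1.04 kb from H2-Ab1, with 40 and 1 counts and a ratio of 10.7 (0.854 to 221).

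For class I genes RNA of bipolar-like nuclei differed by larger factors than promoter accessibility. In bipolar-like nuclei H2-Q7 had 8 UMIs in Ctrl, 164 in WIF1-2w and 2 in WIF1-4w, a log2 RNA ratio of 5.12 at 2 weeks beside an ATAC ratio of 0.91. H2-K1 had 3.72 in RNA beside 0.57 in ATAC, and H2-Q4 3.91 beside 1.17. H2-Q6 RNA had 0, 95 and 2 UMIs, which gives at least 5.74 on the log2 scale against a floor of 3 UMIs in Ctrl, beside 1.65 in ATAC. H2-D1 and Psmb8 had log2 RNA ratios of 2.57 and 3.48 with ATAC ratios of -0.02 and -0.08, so that RNA ratios passed 2-fold where promoter ratios were near 1.

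Over 105 genes of the window with enough RNA in bipolar-like nuclei, Pearson's r between the log2 ratios of RNA and ATAC was 0.53 and Spearman's rho 0.16 at 2 weeks. At 4 weeks r was 0.07 and rho -0.15 over 97 genes. These are descriptions across genes, which are not independent replicates and share libraries and depth. RNA was at least 2-fold higher at 2 weeks for 15 of the 105 genes, against a background of 2.53% of all genes with a promoter locus under the same rule, and 2 of the 15, H2-Q6 and H2-Q4, also had a promoter past 2-fold. In Müller-like nuclei r was 0.46 and rho 0.39 over 83 genes, with 18 genes past 2-fold in RNA (background 8.73%) and 5 in both. In rod-like nuclei r was 0.09 over 103 genes, with 11 past 2-fold in RNA (background 4.3%) and 1 in both. The share of all genes past 2-fold in both was not counted in any class, so the numbers in both have no background.

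A few class II UMIs were counted in neuron classes of WIF1-2w. H2-Eb1 had 2 UMIs in Ctrl, 27 in WIF1-2w and 0 in WIF1-4w of bipolar-like nuclei, with a promoter ratio of 0.916, and rod-like nuclei had 0, 42 and 0 UMIs. In rod-like nuclei of WIF1-2w lymphocyte markers summed to 261 CPM, against 3.06 CPM in Ctrl, and 1146 of the 1206 UMIs were of Ighm. Microglia or macrophage markers there summed to 90.6 CPM in WIF1-2w, with UMIs of 12 of 12, and 38.0 CPM in Ctrl, with UMIs of 8. The part of RNA from immune cells in the RNA ratios was not tested, nor was their part in the ATAC ratios of rod-like nuclei.

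**Figure D4:**
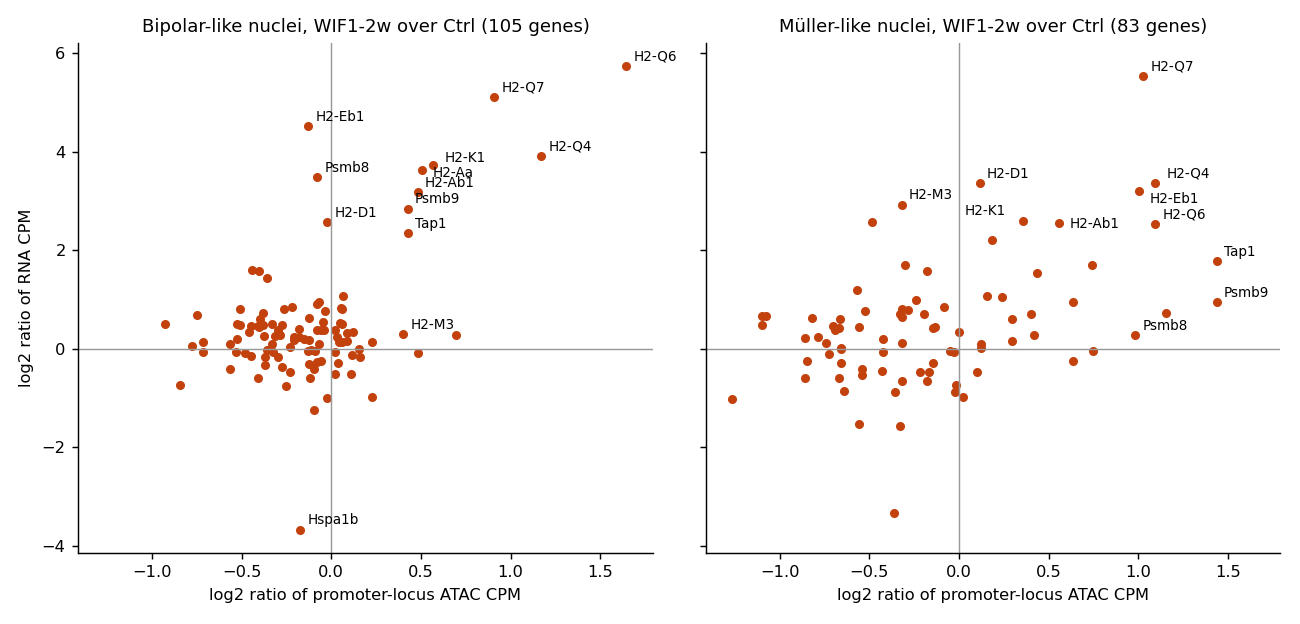
log2 ratio of RNA CPM against log2 ratio of promoter-locus ATAC CPM, WIF1-2w over Ctrl, 1 point per gene of the window, in bipolar-like (105 genes) and Müller-like nuclei (83 genes); a gene with 0 UMIs in Ctrl is set against a floor of 3 UMIs. H2-Q6, H2-Q7 and H2-Q4 are high on both axes in bipolar-like nuclei, and H2-D1 and Psmb8 are high on the RNA axis with ATAC ratios of -0.02 and -0.08.

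The lowest loci over all kept nuclei had low levels. The other H2-Q6 promoter locus, which begins at 35425665 just inside the gene, had 3.66 CPM in Ctrl, 1.1233 CPM in WIF1-2w and 1.69 CPM in WIF1-4w, with ratios of 0.307 (0.193 to 0.472) and 0.463 (0.310 to 0.689), while the first had 8.64, 16.7 and 7.69 CPM. Ly6g6e, of the Ly6 family of surface proteins, had 5.70, 2.62 and 2.43 CPM, with ratios of 0.459 (0.335 to 0.627) and 0.426 (0.308 to 0.589). A promoter locus of Ddr1, a collagen receptor kinase, had 5.34, 2.42 and 2.68 CPM. An element near Cdsn, chr17:35543110-35543922, had 4.68, 2.28 and 1.91 CPM over all kept nuclei. In amacrine-like nuclei, where it was highest and which numbered 352, 210 and 116, it had 34.1, 34.1 and 40.2 CPM. An element 11.2 kb from 4833427F10Rik had 2.9, 1.24 and 1.04 CPM over all kept nuclei, while in bipolar-like nuclei it is the element with 33 counts in WIF1-2w and 7 in Ctrl and the ratio of 2.99 given above. One 1.27 kb from H2-Ab1 had 4.25, 1.88 and 2.23 CPM. Of 2 further loci called in Ctrl and WIF1-4w, one 14.6 kb from Gm11131 had 0.603 CPM in WIF1-4w and 1.88 CPM in Ctrl, and another at H2-K1 had 1.68 and 4.09 CPM. The highest at 4 weeks was H2-Q2, with 2.21, 1.86 and 2.97 CPM and a 4-week ratio of 1.34 (0.887 to 2.04), a log2 ratio of 0.43 that lay between -0.57 and 0.72 over the alternatives. Next to March2, Msh5, a meiotic recombination gene, had 41.3, 62.1 and 53.7 CPM, with ratios of 1.51 (1.37 to 1.65) and 1.3 (1.19 to 1.43).

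The loci called in 1 library alone with most counts were at Ehmt2 in Ctrl (216 counts), at Prrt1 in WIF1-2w (685 counts) and at Ppp1r18 in WIF1-4w (520 counts). H2-T24, a non-classical class I gene, was called in WIF1-2w alone with 240 counts, 75 of them in Müller-like nuclei. H2-T22 had 55 counts in Müller-like nuclei of WIF1-2w and 28 in those of WIF1-4w, and H2-T23 had 28 in WIF1-2w. A locus not called as a peak has no count in the deposited table of that library, so these loci have no ratio.

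Over 6 classes, 184 loci had at least 100 counts in each library. The class with the highest CPM was the same in all 3 libraries at 59 of them, or 32.1%. Rod-like nuclei led at 20 of these 59 and endothelial-like nuclei at 16. At 5 loci the leading class was at least 2-fold above the next in every library. They were a promoter locus of Adamts10 and 2 elements, near H2-Ob and Ppp1r18, in endothelial-like nuclei, an element near H2-Q6 in cone-like nuclei (34.3 CPM in Ctrl, 28.6 in WIF1-2w and 27.2 in WIF1-4w), and the element near Cdsn in amacrine-like nuclei (34.1, 34.1 and 40.2 CPM). These 5 were chosen after their values were seen. The share of all loci of the genome with such patterns was not counted. The minimum of 100 counts is a sum over the 6 classes, so a leading class can rest on few counts. Endothelial-like values rest on 64 nuclei of Ctrl, 54 of WIF1-2w and 78 of WIF1-4w.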

How the data were processed

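RNA and ATAC were measured in the same nuclei of 3 libraries, 1 each for Ctrl, WIF1-2w and WIF1-4w. The deposited matrices hold raw counts per nucleus, of UMIs for genes and of ATAC counts for peaks, per the file headers. The authors used Cell Ranger ARC 2.0.1, and mm10, Seurat 5.0.1 and Signac 1.12.0 are also named, per the submitters' processing notes. Most ATAC entries above 0 are even (84.3% in Ctrl, 89.6% in WIF1-2w and 86.5% in WIF1-4w), so intervals were computed on pairs of counts. Library totals were 37525307, 90490537 and 71304238 ATAC counts and 21805441, 14568384 and 19997276 UMIs.

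Nuclei needed at least 500 UMIs, 300 genes and at most 10% mitochondrial UMIs. Scrublet in scanpy 1.11.5 scored doublets; its automatic threshold called 0, 280 and 0, so 511, 1052 and 716 were taken at 0.8% per 1000 barcodes instead. Clustering used 2000 variable genes, 30 principal components, 15 neighbours and Leiden (leidenalg 0.10.2) at resolution 1. Clusters were named from 3 or more enriched markers, and 244, 46 and 156 nuclei stayed unnamed; names rebuilt here may differ from those of the study.

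ATAC counts were summed over a class and scaled to CPM of the class (Python 3.11.15, numpy 2.4.6, pandas 2.3.3, SciPy 1.17.1, matplotlib 3.10.9), with exact Poisson intervals for levels and conditional binomial (Clopper-Pearson) intervals for ratios. A comparison used loci called in both libraries with at least 30 counts in the higher one, and called a CPM ratio of at least 2 or its inverse. A level of 0 was set against 3 counts. With 1 library per group there were no tests. Correlations used genes with at least 10 UMIs. RefSeq promoters matched 84 of 101 listed genes.

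Loci are named by these rules: promoters of the class I, class II, class I loading, class III and neighbour lists; the 5 highest and 5 lowest over all kept nuclei; the 5 highest other loci in bipolar-, Müller- and rod-like nuclei; and the 3 with most counts among loci called in 1 library. The members and lists were chosen with earlier results of these data known. Alternatives were other scalings, count minimums, overlap rules, promoter distances and nucleus filters. The scripts were tested on simulated data.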

Additional observations from a re-analysis of the deposited data

Results flagged for a closer look

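At 3 loci 2 classes of nuclei differed in opposite directions between WIF1-2w and Ctrl, each past 2-fold and with a counting interval that excluded 1. Only loci of the window were searched, and the share of all loci of the genome with such a pattern was not counted. The Psmb9/Tap1 promoter had a log2 ratio of 1.67 in rod-like and -1.18 in endothelial-like nuclei. The element at chr17:36230997-36232011 had 1.14 in bipolar-like and -1.61 in endothelial-like nuclei. The element at chr17:34079339-34080251, 12.1 kb from H2-Oa, had 1.37 in amacrine-like nuclei (42 counts in WIF1-2w and 17 in Ctrl) and -1.18 in rod-like nuclei (30 and 25 counts). A further element, chr17:35705711-35706559 near Ddr1, was past 2-fold in opposite directions too, with -1.69 in bipolar-like nuclei (24 counts in WIF1-2w and 49 in Ctrl) and 1.51 in Müller-like nuclei (32 and 3 counts), where the interval included 1. With 1 library per group these differences between classes were not tested, and the endothelial-like values rest on 54 nuclei of WIF1-2w and 64 of Ctrl.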

How the results depend on the processing

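Of 104 recomputed values of the main results 88 stayed within 1.5 times the count or near the median reported and 16 moved. Of 1369 recomputed values for single loci and smaller counts 1341 stayed, 28 moved and 0 of those past 2-fold changed sign. Scaling by the median of ratios over matched loci removed the offset between libraries. Under it the loci past 2-fold numbered 10 higher in bipolar-like nuclei, 13 higher in rod-like nuclei and 24 higher in Müller-like nuclei at 2 weeks, and 2 over all kept nuclei at 4 weeks. Promoter medians turned positive, 0.22 at 2 weeks and 0.19 at 4 weeks, as did those of other loci, 0.12 and 0.0027. The cause is the scaling itself, which moves all loci by a constant. With CPM of matched loci Müller-like nuclei had 22 higher loci at 2 weeks, against 13.5% of all loci, and the 2-week promoter median was -0.0079. All kept nuclei then had 6 loci past 2-fold at 4 weeks, all of them lower, where 8.98% of all loci were lower. With CPM of promoter loci Müller-like nuclei had 20 higher loci at 2 weeks, against 11.9% of all loci. A minimum of 10 counts gave 23 in Müller-like nuclei, and one of 100 counts gave 1 there and 3 in rod-like nuclei. Leaving out nuclei with over 25% rod chromatin left 3 loci past 2-fold over all kept nuclei at 2 weeks. The share of all loci past 2-fold was not counted under these minimums or this filter. These counts therefore cannot be set against a background. Keeping called doublets, all barcodes, counts per kb, the stricter overlap and other promoter distances moved none of the main counts or medians. The setting named nuclei only was chosen after the data were seen and moved none of them either.

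Single loci varied less. In bipolar-like nuclei at 2 weeks the log2 ratio of H2-Q6 lay between 1.55 and 1.91 over 9 settings, H2-Q4 between 1.03 and 1.43, H2-Q7 between 0.76 and 1.17, and H2-D1 between -0.08 and 0.24. The element at 36230997 lay between 0.93 and 1.46, lowest with called doublets kept. In rod-like nuclei Psmb9/Tap1 lay between 1.59 and 1.94 and Ddah2 between 1.68 and 2.13. No paired analysis was possible because each group has 1 library. Ctrl was the shallowest library, and Müller-, amacrine- and endothelial-like nuclei of Ctrl gave 49 or fewer counts at H2-Q4, H2-Q6 and H2-Q7.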
